A study of Mus musculus with 24 samples.

Results

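Livers of mice fed a safflower oil diet (SFO) were compared with livers of mice fed an olive oil diet (OO). Messenger RNA was measured by QuantSeq, a 3′ tag method that sequences mainly the 3′ end of each transcript, so that a gene's count does not grow with its length. All mice were male, wild-type C57BL/6, an inbred laboratory strain, and were kept on their diet for 6 weeks. The study also holds livers from mice fed a cottonseed oil diet (CSO) or chow, which served here to estimate the spread between libraries and are shown as levels at the end. Members of the comparison were chosen by their labelled diet alone: SFO libraries 1, 2, 3, 5 and 6 and OO libraries 1 to 6, which are 11 of the 23 libraries with counts. The labels name 24 samples. SFO 4, which the submitters describe as an outlier with possible contamination, was not analysed here. Replicates are labelled only as separate samples, with no cage, litter or age. A p-value here thus speaks of the spread among the livers in its fit, mostly those of all 4 diets. Part of that spread may be technical.

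Dietary oils differ mainly in their fatty acids. Olive oil is rich in oleic acid, a monounsaturated fatty acid, and common safflower oil is rich in linoleic acid, a polyunsaturated one, but safflower oils of high oleic content also exist and the labels do not say which was fed. In liver, polyunsaturated fatty acids are known to restrain SREBP-1c, the transcription factor that drives fatty acid synthesis genes, and fatty acids in general are ligands of PPAR alpha, the nuclear receptor that drives genes of fatty acid oxidation. Hepatocytes also make bile acids, clear foreign compounds and, when inflammatory cytokines such as interleukin 6 reach them, secrete acute phase proteins.

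Library totals were 5428649 to 10690596 counts in SFO livers and 7907040 to 11173505 in OO livers. With each library thinned to 5000000 counts, 11636 ± 323 genes were detected in SFO livers (SD, n = 5) and 10930 ± 400 in OO livers (n = 6), a difference of 706.7 genes (exact two-sided permutation test over 462 splits, p = 0.0108). OO 3 stood lowest, with 10311 genes. As a liver check, 11 hepatocyte markers, albumin among them, summed to 139000 to 179000 CPM (counts scaled to 1000000 per library) in SFO livers and 155000 to 205000 CPM in OO livers. Kupffer cell markers summed to 150 to 332 CPM in SFO livers and 125 to 388 CPM in OO livers, and endothelial markers to 260 to 579 CPM and 283 to 669 CPM in the same order. Of 13 neutrophil markers only 1 was tested, with a sum of at most 1 CPM in SFO livers and 22.9 CPM in OO livers. In bulk tissue, fewer cells of a type and less RNA per cell cannot be told apart.

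Of 11971 genes tested, 127 differed between SFO and OO livers at an adjusted p under 0.05 (edgeR's quasi-likelihood test over all 23 libraries, Benjamini-Hochberg), which is 1.06% of the genes. More of them were lower in SFO livers than higher: 95 genes (0.794%) fell and 32 (0.267%) rose. Rose and fell describe SFO livers relative to OO livers throughout, not a change from chow. The count came from a fit that took its spread from all 4 diets, and it moved with the libraries in the fit. With only the 11 SFO and OO libraries in the fit, 2 of 10394 genes (0.0192%) were called, Gclc, lower in SFO livers, and Mup20, higher. In that fit 824 genes had an unadjusted p under 0.05, where a share of 0.05 would do so on average with no difference at all. The fit on the 11 libraries also set its own genes and factors, and with those of all libraries 10 genes were called. The cause of the drop was not tested. Among well expressed genes, the median SD of log2 CPM between livers of a diet was 0.344 in SFO and 0.421 in OO, against 0.24 in CSO and 0.25 in chow, so the spread shared by all diets was smaller than that of these 2 groups. All 119 of the called genes that the smaller fit tested had the same direction there and an unadjusted p under 0.05, and 15 had an adjusted p under 0.1. The smaller fit compares the same 11 livers, and the genes were chosen by their p in the larger fit, so this is not separate evidence for the calls. Except for Gclc and Mup20, every gene called below was called with all diets in the fit and not with these 2 diets alone. Scaled by library totals without a composition factor, which moved the log2 fold changes up by 0.127 at the median gene, 33 genes were called higher and 23 lower. Of the 127 calls 48 were kept. Among genes described below, Acaa1b, Hsd17b4, Pecr, Acad11, Scd1, Sc5d, Fitm1, Slc10a1, Slco1b2 and Akr1c6 lost their call. So did Cat, Gstm1, Ugp2, Gbe1, Prkaa2, Rgn, Otc, Shmt2, Dbt, Hibadh, Aldh6a1, Abat, Aldh4a1, Aldh2, Ghr, Hsd3b5 and Car3. Also lost were Serpina7, Rpain, Mgmt, Tusc3, Tecpr2, Tmem104, Ogfod1 and Zfp385b, and of the rises Saa1, Orm2 and A930004D18Rik. Leaving out single libraries changed the count as well. Without SFO 5 it was 31, and without OO 5 it was 240. Where the loss of 1 library ends a call below, each such library is named, with the highest adjusted p over them. The other 9 omissions gave 53 to 163 calls.

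**Figure D1:**
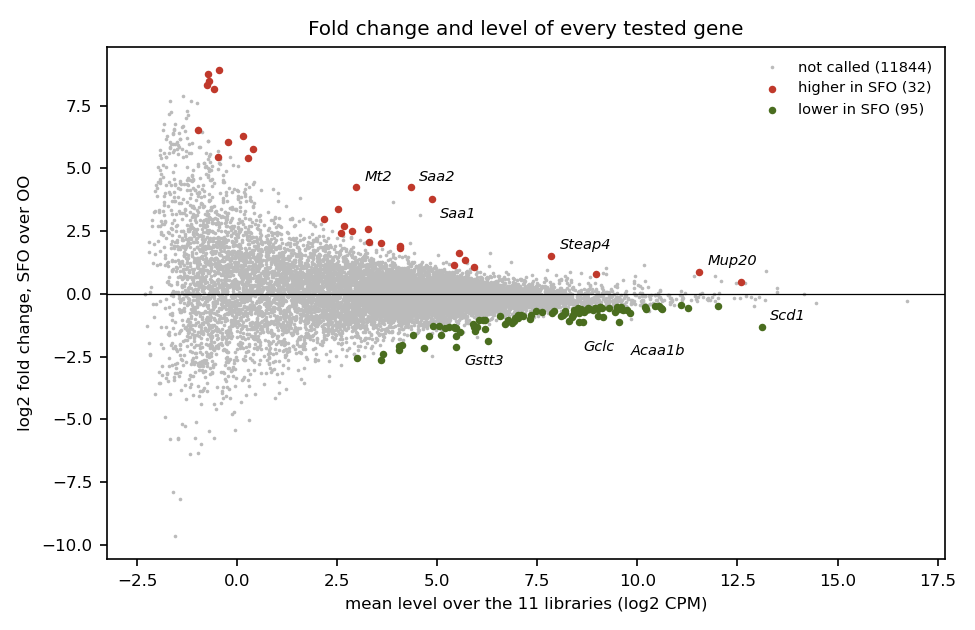
Log2 fold change, SFO over OO, of each tested gene against its mean level over the 11 libraries in log2 CPM, with called genes in red (32 higher in SFO) and green (95 lower in SFO) and the others in grey. The genes higher in SFO lie mostly at low levels and the genes lower in SFO mostly at high levels.

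**Figure D2:**
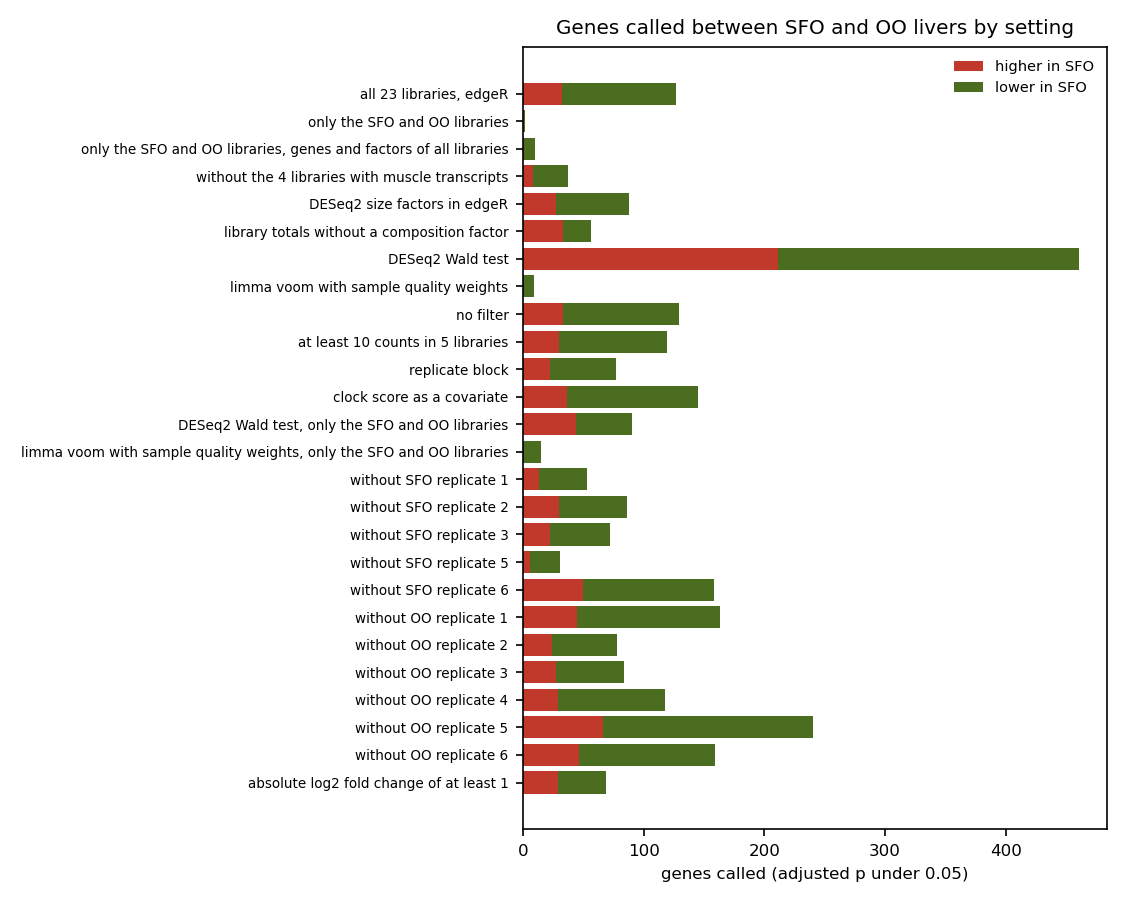
Number of genes called at an adjusted p under 0.05, higher (red) and lower (green) in SFO livers, for the fit on all 23 libraries at the top and each other setting below it. The count was 127 with all libraries and 2 with the SFO and OO libraries alone, and DESeq2's Wald test gave the most, 461.

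Genes that fell and genes that rose differed in kind. Those lower in SFO livers were mostly abundant liver transcripts, with a median level of 7.91 log2 CPM and a median log2 fold change of -0.882. Of the 95, 1 had a mean under 3 log2 CPM. Those higher had a median level of 2.92 log2 CPM and a median log2 fold change of 2.85, and 17 of the 32 had a mean under 3 log2 CPM. The higher number of genes detected in SFO livers moved in the same direction as these low-level rises, and its part in them was not tested. Every SFO library lay below the OO mean in 94 of the 95 genes that fell and above it in 23 of the 32 that rose. In 36 of the 95 and 10 of the 32 the ranges of the groups did not overlap. Among all tested genes, 0.576% had every SFO library below every OO library and 0.535% had every one above, 1.11% in all.

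The firmest difference was in a single gene of glutathione synthesis. Gclc, the catalytic subunit of glutamate-cysteine ligase, the rate-limiting enzyme of that pathway, stood at 213, 299, 270, 244 and 299 CPM in SFO livers 1, 2, 3, 5 and 6, against 416 CPM at the lowest, 587 at the median and 707 at the highest in OO livers. No SFO liver reached the lowest OO liver. The log2 fold change was -1.12 ± 0.16 (SE; edgeR's quasi-likelihood test, adjusted p = 4.83e-05). In the fit on the 11 libraries its adjusted p was 0.0096. Gclc kept its call in all 13 settings and all 11 omissions of a library. Its partner Gclm, the regulatory subunit, averaged 189 ± 38 CPM in SFO livers and 249 ± 59.9 CPM in OO livers (SD), with an adjusted p of 0.251. The median log2 fold change of 22 tested targets of NRF2, the transcription factor of the antioxidant response, was -0.314 beside -0.0446 over all genes. Of these targets 2 fell (9.09%, beside 0.794% of all genes) and none rose. The second was Gstm1, a glutathione S-transferase whose family members share sequence, so its separate count is uncertain. It was at 524 to 640 CPM in SFO livers, against 743 to 983 CPM in OO livers (log2 fold change -0.51, adjusted p = 0.0277, up to 0.0811 without SFO 1, 2 or 5 or OO 2). Gstt3, a theta-class transferase, was at 18, 27.6, 21.6, 29.4 and 18.9 CPM in SFO livers, against 41.2, 55.8 and 254 CPM at the lowest, median and highest OO liver. Its groups did not overlap, its log2 fold change was -2.10 ± 0.39 (adjusted p = 0.00582), and the call held in each of the 11 omissions. Catalase (Cat), which breaks down hydrogen peroxide in peroxisomes and was chosen here after its values were seen, averaged 3495 ± 272 CPM in SFO livers and 4834 ± 681 CPM in OO livers, with no overlap (adjusted p = 0.0149).

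**Figure D3:**
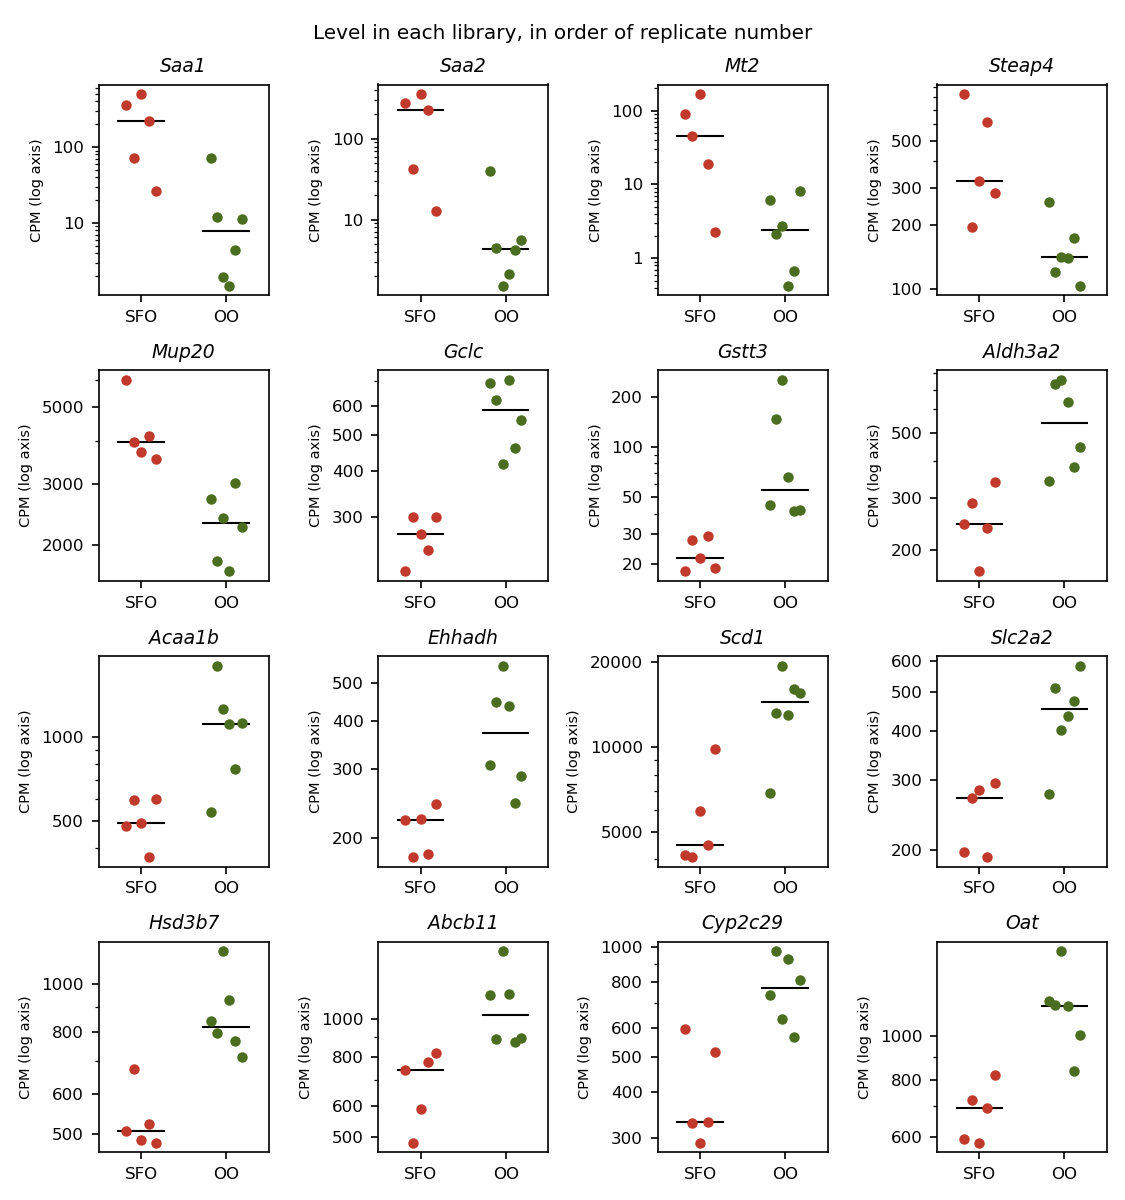
Level of 16 genes in each library in CPM on log axes, with SFO libraries 1, 2, 3, 5 and 6 at the left and OO libraries 1 to 6 at the right of each panel; lines mark medians. Gclc, Gstt3, Aldh3a2, Ehhadh, Hsd3b7, Abcb11, Oat and Mup20 do not overlap between the diets, while Saa1, Saa2 and Mt2 span more than 10-fold among the SFO livers.

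Oxidation of fatty acids in peroxisomes was the lipid list with the largest share of genes lower in SFO livers. Of its 16 tested members 4 fell (25%, beside 0.794% of all genes) and none rose, with a median log2 fold change of -0.331. Scaled by library totals 1 member fell and the median was -0.194. Without SFO 5 it was also 1 member, and in the fit on the 11 libraries none. PPAR alpha targets, which share 2 of these genes, counted 3 lower of 31 (9.68%, beside 0.794% of all genes) and none higher. Their median was -0.24. Ehhadh, the bifunctional enzyme of the peroxisomal pathway, was at 222, 178, 223, 182 and 244 CPM in SFO livers, against 246, 372 and 554 CPM at the lowest, median and highest OO liver. The ranges met without overlapping, and the log2 fold change was -0.86 ± 0.17 (adjusted p = 0.0083; 0.164 in the fit on the 11 libraries). Acaa1b, a peroxisomal thiolase with a close paralog, was at 481, 596, 493, 372 and 599 CPM in SFO livers, against 538, 1114 and 1794 CPM. Only OO 1 fell among the SFO livers. Its log2 fold change was -1.11 ± 0.22 (adjusted p = 0.0149; 0.0557 without SFO 5). Hsd17b4, the second bifunctional enzyme, and Pecr, a trans-2-enoyl-CoA reductase, fell by 0.59 and 0.71 on the log2 scale (adjusted p = 0.0499 and 0.0353). Both calls depended on single libraries: the adjusted p was up to 0.19 without SFO 1, 2, 3, 5 or 6 or OO 2 or 4 for Hsd17b4. It was up to 0.108 without SFO 1, 3, 5 or 6 or OO 2 or 3 for Pecr.

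Read per library, the mean log2 CPM of the 16 peroxisomal genes was 7.82, 7.99, 7.83, 7.81 and 7.98 in SFO livers, against 8.08, 8.36 and 8.66 at the lowest, median and highest OO liver. The diets did not overlap on this scale, which includes the composition factors. OO 3, at 8.31, had a factor of 0.811, and SFO 2, at 7.99, had 1.036. A factor under 1 raises a level and a factor over 1 lowers it. Scaled by library totals OO 3 would stand close to SFO 2, so the separation is shown only with the factors. Aldh3a2, a fatty aldehyde dehydrogenase and PPAR alpha target, showed the largest fall of the list that held under all 11 omissions: 245, 287, 169, 237 and 340 CPM in SFO livers, against 343, 541 and 756 CPM in OO livers. Its log2 fold change was -1.11 ± 0.18 (adjusted p = 0.000706; 0.0698 in the fit on the 11 libraries). Mitochondrial fatty acid oxidation counted 1 lower member of 19 (5.26%, beside 0.794% of all genes) and none higher. This was Acad11, an acyl-CoA dehydrogenase, at 273 ± 68.6 CPM in SFO livers and 429 ± 104 CPM in OO livers (adjusted p = 0.0372, up to 0.123 without SFO 1, 2, 3 or 5 or OO 2, 3 or 4). Of the 4 ketone body genes none was called. Acat1, a mitochondrial thiolase, averaged 402 ± 41.6 CPM in SFO livers and 510 ± 50.3 CPM in OO livers.

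Scd1, the stearoyl-CoA desaturase that makes oleic acid from stearic acid, was the most abundant of the genes that fell. It stood at 4139, 4077, 5942, 4499 and 9879 CPM in SFO livers, against 6908, 14450 and 19470 CPM at the lowest, median and highest OO liver. SFO 6 lay above the lowest OO liver, OO 1, and the other SFO livers lay below all OO livers. The log2 fold change was -1.30 ± 0.27 (adjusted p = 0.0277; 0.258 in the fit on the 11 libraries, and up to 0.0762 without SFO 1, 2, 3 or 5 or OO 3). Scd1 was the only called gene of the 22 of fatty acid synthesis and desaturation (4.55%, beside 0.794% of all genes lower). The median log2 fold change of the 22 was -0.401. A pair of other members, chosen after their values were seen, leaned the same way without passing the test. Fatty acid synthase (Fasn) averaged 679 ± 269 CPM in SFO livers and 1350 ± 721 CPM in OO livers (adjusted p = 0.104). Srebf1, which encodes SREBP-1, averaged 241 ± 109 CPM and 418 ± 116 CPM (adjusted p = 0.0939). Of 25 genes of cholesterol synthesis and uptake 1 fell (4%, beside 0.794% of all genes) and none rose. This was Sc5d, a late sterol desaturase, at 617 ± 178 CPM in SFO livers and 946 ± 120 CPM in OO livers (adjusted p = 0.0277, up to 0.0992 without SFO 1, 2 or 5 or OO 2). Fitm1, a protein of lipid droplet formation, was the lone call among 23 genes of triglyceride synthesis and droplets (4.35%, beside 0.794% of all genes lower). It averaged 19.4 ± 6.53 CPM in SFO livers and 47.2 ± 24.7 CPM in OO livers (adjusted p = 0.0499, up to 0.127 without SFO 1, 3, 5 or 6 or OO 3 or 6). Among 23 lipoprotein genes none was called. Apoe averaged 19870 ± 2315 CPM in SFO livers and 25270 ± 4155 CPM in OO livers (adjusted p = 0.0662). Apoa1 averaged 11760 ± 1517 CPM and 11280 ± 1212 CPM (adjusted p = 0.825).

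**Figure D4:**
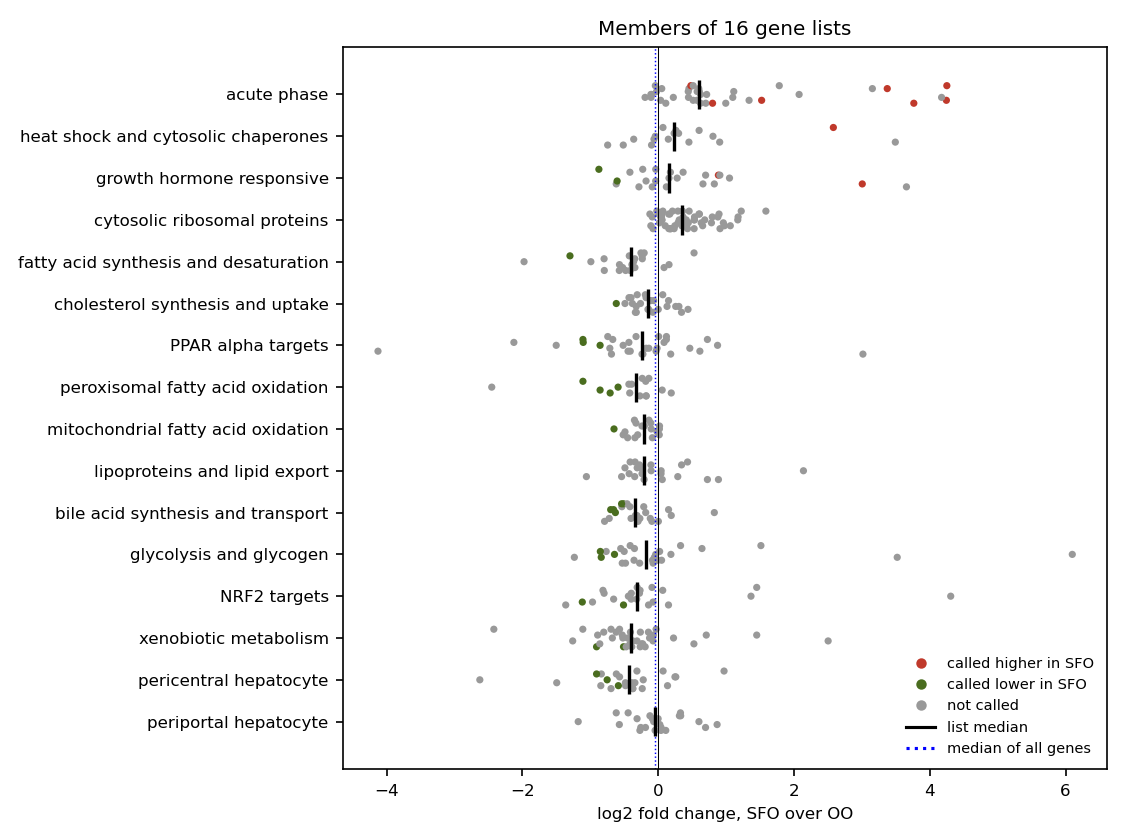
Log2 fold change, SFO over OO, of the tested members of 16 gene lists, with called members in red (higher in SFO) or green (lower in SFO), the median of each list as a black line and the median of all genes as a dotted line at -0.0446. Calls are to the right for the acute phase and heat shock lists and on both sides for the growth hormone list. The ribosomal protein, lipoprotein and periportal lists hold no call, and in the other lists calls are to the left.

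Genes of bile acid synthesis and transport counted 5 lower (21.7%, beside 0.794% of all genes) and none higher of 23 tested, with a median log2 fold change of -0.337. Scaled by library totals 2 fell and the median was -0.198, and in the fit on the 11 libraries none fell. Hsd3b7, an enzyme that acts on the sterol ring early in bile acid synthesis, was at 508, 674, 485, 524 and 480 CPM in SFO livers, against 714, 820 and 1161 CPM at the lowest, median and highest OO liver. Its groups did not overlap, the log2 fold change was -0.70 ± 0.14 (adjusted p = 0.00747; 0.113 in the fit on the 11 libraries), and the call held in all 11 omissions. The other 4 were 3 carriers and a reductase. Abcb11, the bile salt export pump of the canalicular membrane, was at 744, 484, 592, 776 and 822 CPM in SFO livers, against 875, 1025 and 1494 CPM, again with no overlap (log2 fold change -0.66, adjusted p = 0.0207, up to 0.0686 without SFO 2 or 3 or OO 3). Slc10a1, which takes up bile salts from blood, averaged 643 ± 106 CPM in SFO livers and 996 ± 235 CPM in OO livers (adjusted p = 0.0265, up to 0.0762 without SFO 1, 2, 3 or 5 or OO 3 or 4). Slco1b2, an organic anion carrier, averaged 1276 ± 54.2 CPM in SFO livers and 1856 ± 332 CPM in OO livers (adjusted p = 0.0215, up to 0.0582 without SFO 5 or OO 3). Akr1c6, an aldo-keto reductase with close paralogs, averaged 967 ± 133 CPM and 1379 ± 210 CPM in the same order (adjusted p = 0.0324, up to 0.0927 without SFO 1, 3 or 5 or OO 2, 3 or 4). Across the list only 1 call was left without OO 3, and 6 were made without OO 5.

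Among 26 genes of glycolysis and glycogen, 3 fell (11.5%, beside 0.794% of all genes) and none rose. Slc2a2, the glucose transporter of hepatocytes, was at 198, 270, 283, 192 and 295 CPM in SFO livers, against 277, 455 and 583 CPM at the lowest, median and highest OO liver. OO 1 alone fell among the SFO livers. Its log2 fold change of -0.85 ± 0.17 (adjusted p = 0.0083; 0.113 in the fit on the 11 libraries) held in all 11 omissions. Ugp2, which makes the UDP-glucose from which glycogen is built, averaged 337 ± 39.7 CPM in SFO livers and 527 ± 180 CPM in OO livers with no overlap (adjusted p = 0.0324). Gbe1, the glycogen branching enzyme, averaged 102 ± 12.4 CPM and 182 ± 54.1 CPM in the same order (adjusted p = 0.034). For Ugp2 the adjusted p was up to 0.115 without SFO 1, 3 or 5 or OO 3, and for Gbe1 up to 0.0873 without SFO 1, 2, 3 or 5 or OO 2, 3 or 4. Scaled by library totals neither was called, and in the fit on the 11 libraries no member of the list was. Prkaa2, a catalytic subunit of the energy sensor AMPK, chosen after its values were seen, fell to 75.2 ± 27.9 CPM in SFO livers, against 161 ± 49 CPM in OO livers (adjusted p = 0.0195; up to 0.0595 without SFO 1 or 2). Of 18 genes of gluconeogenesis and fasting none was called. Pck1, the committing enzyme of gluconeogenesis, averaged 3660 ± 1229 CPM in SFO livers and 2258 ± 465 CPM in OO livers, with an adjusted p of 0.101.

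Hepatocytes near the central vein carry most drug-metabolising enzymes. Of 24 pericentral genes 3 fell (12.5%, beside 0.794% of all genes) and none rose, with a median log2 fold change of -0.436. No call was made among 23 periportal genes, whose median was -0.0466. Cyp2c29, a cytochrome P450 of a family with near-identical members, was at 594, 328, 290, 332 and 516 CPM in SFO livers, against 566, 773 and 972 CPM at the lowest, median and highest OO liver. Only SFO 1 lay above the lowest OO liver. Its log2 fold change was -0.91 ± 0.16 (adjusted p = 0.003; 0.0698 in the fit on the 11 libraries), and all 11 omissions kept the call. Oat, the ornithine aminotransferase of pericentral cells, averaged 682 ± 98.4 CPM in SFO livers and 1150 ± 232 CPM in OO livers with no overlap (adjusted p = 0.0122), also under all 11 omissions. Rgn, regucalcin, a gluconolactonase, averaged 958 ± 153 CPM and 1440 ± 156 CPM in the same order, again with no overlap (adjusted p = 0.0149; 0.0585 without SFO 3). Scaled by library totals Rgn was not called. Xenobiotic metabolism as a whole counted 2 lower members of 36 (5.56%, beside 0.794% of all genes), Cyp2c29 and Gstm1, and none higher. Its median was -0.4.

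**Figure D5:**
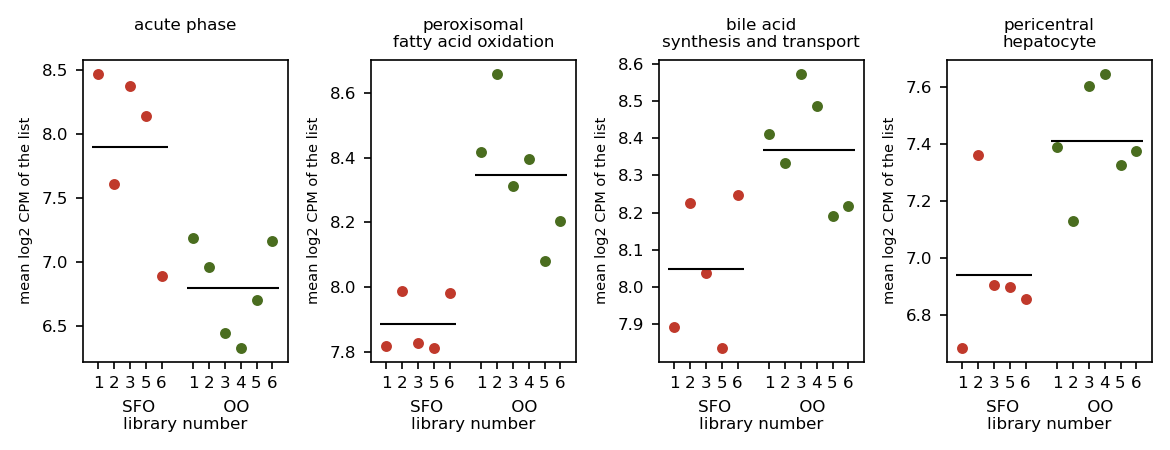
Mean log2 CPM of the tested members of 4 gene lists in each library, SFO libraries at the left in red and OO libraries at the right in green, with group means as lines. With composition factors applied, the peroxisomal list does not overlap between the diets. SFO 6 lies among the OO livers for the acute phase list.

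Single enzymes of amino acid breakdown were called lower in SFO livers. Otc, the urea cycle enzyme ornithine transcarbamylase, was the 1 call of 34 in amino acid catabolism and the urea cycle, at 504 ± 58.5 CPM in SFO livers and 754 ± 125 CPM in OO livers with no overlap (adjusted p = 0.0276, up to 0.0795 without SFO 2 or 5). That is 2.94% of the list, beside 0.794% of all genes lower. Scaled by library totals without a composition factor, Otc was not called, and 2 members of the list were higher and none lower. Shmt2, which feeds one-carbon metabolism in mitochondria, averaged 187 ± 29.6 CPM and 303 ± 57.3 CPM in the same order (adjusted p = 0.0265, up to 0.0762 without SFO 1, 3 or 5 or OO 2). Apart from Adh1, the genes that follow here and in the next paragraph were chosen after their values were seen. Dbt, a subunit of the branched-chain keto acid dehydrogenase, fell to 70.1 ± 9.96 CPM in SFO livers, against 130 ± 50.3 CPM in OO livers. Hibadh and Aldh6a1, which act later in the breakdown of valine, fell by 0.54 each on the log2 scale, to 356 ± 39 and 447 ± 44.3 CPM in SFO livers, against 518 ± 99.6 and 648 ± 165 CPM in OO livers. The adjusted p of these 3 genes lay between 0.0408 and 0.0481, and was up to 0.115 without SFO 1, 2, 3, 5 or 6 or OO 2 or 4 for Dbt. It was up to 0.118 without SFO 1, 2, 3 or 5 or OO 2, 3 or 4 for Hibadh and up to 0.117 without SFO 1, 2, 3 or 5 or OO 1, 2, 3 or 4 for Aldh6a1. Abat and Aldh4a1, which break down GABA and proline, fell by 0.60 and 0.63 (adjusted p = 0.0265, up to 0.0817 without SFO 1 or 2 or OO 3 for Abat, and 0.0215, up to 0.08 without SFO 2 or 5 or OO 3 for Aldh4a1).

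Among the remaining mitochondrial genes, 3 kept their call in all 11 omissions. Coq8a, needed to make coenzyme Q, was at 239, 227, 142, 256 and 331 CPM in SFO livers, against 326, 481 and 589 CPM at the lowest, median and highest OO liver (log2 fold change -0.94 ± 0.19, adjusted p = 0.0083; 0.0989 in the fit on the 11 libraries). Acsf3, a malonyl-CoA synthetase, was at 27.2 to 50 CPM in SFO livers and 62.9 to 154 CPM in OO livers (adjusted p = 0.0083). Cyb5b, the outer-membrane cytochrome b5, was at 331 to 506 CPM in SFO livers and 536 to 973 CPM in OO livers (adjusted p = 0.0032). Neither overlapped between the diets. A pair of dehydrogenases of alcohol metabolism fell as well. Adh1 fell to 1265 ± 228 CPM in SFO livers, against 1910 ± 338 CPM in OO livers (adjusted p = 0.0149; 0.0695 without SFO 5). Aldh2 fell to 1867 ± 254 CPM, against 2546 ± 356 CPM (adjusted p = 0.0473, up to 0.123 without SFO 1, 2, 3 or 5 or OO 2, 3 or 4). Of 57 tested genes of the respiratory chain none was called, and their median log2 fold change was 0.171.

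Mup20 was the gene that rose most firmly. It encodes the major urinary protein darcin, a male pheromone, and belongs to a family of near-identical genes, so its separate count is uncertain. It stood at 5988, 3957, 3708, 4131 and 3534 CPM in SFO livers, against 1678, 2321 and 3023 CPM at the lowest, median and highest OO liver. Every SFO liver was above every OO liver. The log2 fold change was 0.89 ± 0.18 (adjusted p = 0.0149; 0.0096 in the fit on the 11 libraries), and all 11 omissions kept the call. Mup1 rose too, to 16.3 ± 9.13 CPM in SFO livers, against 2.02 ± 1.55 CPM in OO livers (adjusted p = 0.0324, up to 0.0884 without SFO 1 or 5 or OO 2 or 4). Major urinary proteins respond to growth hormone in male mouse liver. On that list of 23 genes, 2 rose and 2 fell (8.7% each, beside 0.267% and 0.794% of all genes). Those that fell were Ghr, the growth hormone receptor, and Hsd3b5, a male-specific steroid dehydrogenase. Ghr averaged 604 ± 95.7 CPM in SFO livers and 920 ± 205 CPM in OO livers (adjusted p = 0.0215, up to 0.0749 without SFO 1 or 5 or OO 1). Hsd3b5 averaged 207 ± 44.8 CPM in SFO livers and 379 ± 168 CPM in OO livers (adjusted p = 0.0393, up to 0.108 without SFO 2, 3, 5 or 6 or OO 1, 3 or 4).

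Acute phase genes were the list with the most rises: 7 of 38 tested members were higher in SFO livers (18.4%, beside 0.267% of all genes), and none was lower. The median log2 fold change was 0.601, with 32 of the 38 above 0. Saa1 and Saa2 encode serum amyloid A, an apolipoprotein that inflammation induces, and share sequence. Saa1 was at 355, 72.3, 501, 219 and 26.4 CPM in SFO livers, against 1.5, 7.83 and 72 CPM at the lowest, median and highest OO liver. SFO 1, 3 and 5 were high, SFO 2 barely passed OO 1, and SFO 6 lay within the OO range. The log2 fold change was 3.76 ± 0.90 (adjusted p = 0.0499; 0.424 in the fit on the 11 libraries, and up to 0.1 without SFO 1, 2, 3 or 5 or OO 2, 3, 4, 5 or 6). Saa2 was at 277, 42.5, 358, 225 and 12.9 CPM in SFO livers, against 1.52, 4.37 and 39.6 CPM, with the same livers high (log2 fold change 4.24 ± 0.95, adjusted p = 0.0347, up to 0.0762 without SFO 1, 3 or 5 or OO 2, 3, 4 or 6). Mt2, a metallothionein that binds zinc and copper, was at 90.5, 45.6, 167, 19 and 2.27 CPM in SFO livers, against 0.427, 2.45 and 8.19 CPM (log2 fold change 4.25 ± 0.86, adjusted p = 0.0149; 0.0698 in the fit on the 11 libraries, and 0.0541 without OO 3). SFO 6 again fell among the OO livers. The related Mt1, chosen after its values were seen, averaged 122 ± 96.8 CPM in SFO livers and 13.7 ± 12.7 CPM in OO livers without passing the test (adjusted p = 0.0639).

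Steap4, a metalloreductase induced in inflamed liver, was at 830, 196, 322, 611 and 282 CPM in SFO livers, against 103, 140 and 258 CPM at the lowest, median and highest OO liver, with SFO 2 below OO 1 (log2 fold change 1.52 ± 0.34, adjusted p = 0.0312, up to 0.0762 without SFO 1 or 5 or OO 2, 3 or 4). Orm2, an orosomucoid, averaged 30.8 ± 23.9 CPM in SFO livers and 2.96 ± 2.63 CPM in OO livers (adjusted p = 0.0499, up to 0.123 without SFO 1, 3 or 5 or OO 1, 2, 3, 4 or 5). Serpina3n, a protease inhibitor, averaged 704 ± 294 CPM and 405 ± 64.5 CPM in the same order, with SFO 2 below the OO mean (adjusted p = 0.0265, up to 0.112 without SFO 1, 3 or 5 or OO 3). Fgg, the gamma chain of fibrinogen, averaged 7579 ± 2044 CPM in SFO livers and 5431 ± 743 CPM in OO livers, with SFO 6 below the OO mean (adjusted p = 0.0372, up to 0.156 without SFO 1, 3 or 5 or OO 2, 3, 4 or 5). The other fibrinogen chains and haptoglobin, chosen after their values were seen, did not pass. Fga averaged 7961 ± 2469 CPM in SFO livers and 5862 ± 462 CPM in OO livers (adjusted p = 0.112). Fgb averaged 6762 ± 1811 CPM and 4943 ± 479 CPM (adjusted p = 0.0549). Hp averaged 5382 ± 2029 CPM and 3314 ± 786 CPM (adjusted p = 0.0608). The mean log2 CPM of the 38 genes was 8.47, 7.61, 8.38, 8.14 and 6.89 in SFO livers, against 6.33, 6.83 and 7.19 in OO livers. The number of calls on the list followed single libraries: 16 members rose without SFO 6, and 1 did without SFO 1, without SFO 5 or without OO 3. None was called in the fit on the 11 libraries. Marker genes of Kupffer cells were not called, and Clec4f, specific to these resident macrophages, averaged 53.4 ± 24.9 CPM in SFO livers and 44.5 ± 17.6 CPM in OO livers.

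Promoters of acute phase genes that rose are shown because these genes were called together on 1 list. Their high livers were alike but not the same: SFO 1 and 3 were high for Saa1, Saa2 and Mt2, while Steap4 was highest in SFO 1 and 5. RefSeq windows on GRCm38.p6, from 250 bases before to 50 after the start, were matched by symbol to 104 of the 127 called genes and 9605 tested genes, and 10 motifs were searched on both strands. The C/EBP motif TTGCNNAA, named after factors that drive acute phase genes in liver, was in the windows of 5 of the 7 genes that rose, against 10.4% of all genes with a window. Its matches are in capitals, and begin 182, 183, 120, 87 and 12 bases before the start of Saa1, Saa2, Orm2, Steap4 and Mt2. Saa1 lies at chr7:46742931-46743230 on the minus strand and Saa2 at chr7:46751583-46751882 on the plus strand, and both carry the letters TTGCACAA. Orm2 lies at chr4:63362199-63362498, Steap4 at chr5:7960222-7960521 and Mt2 at chr8:94172368-94172667, all on the plus strand.
Saa1: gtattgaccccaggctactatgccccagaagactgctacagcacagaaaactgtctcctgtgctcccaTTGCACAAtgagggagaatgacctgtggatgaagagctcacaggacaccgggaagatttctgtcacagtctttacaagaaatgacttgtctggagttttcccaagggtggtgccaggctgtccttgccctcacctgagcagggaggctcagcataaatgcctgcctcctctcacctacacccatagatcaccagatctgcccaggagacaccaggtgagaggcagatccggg
Saa2: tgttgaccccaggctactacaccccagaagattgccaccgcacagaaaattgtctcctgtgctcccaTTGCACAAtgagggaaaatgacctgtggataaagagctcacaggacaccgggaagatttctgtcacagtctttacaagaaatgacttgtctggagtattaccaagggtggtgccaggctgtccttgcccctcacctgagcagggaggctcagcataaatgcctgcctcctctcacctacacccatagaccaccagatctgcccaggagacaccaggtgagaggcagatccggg
Orm2: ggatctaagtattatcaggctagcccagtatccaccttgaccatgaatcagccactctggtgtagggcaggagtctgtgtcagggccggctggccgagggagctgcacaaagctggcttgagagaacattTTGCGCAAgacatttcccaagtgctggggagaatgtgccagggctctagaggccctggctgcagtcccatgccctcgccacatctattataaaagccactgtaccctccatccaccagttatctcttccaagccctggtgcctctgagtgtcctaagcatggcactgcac
Steap4: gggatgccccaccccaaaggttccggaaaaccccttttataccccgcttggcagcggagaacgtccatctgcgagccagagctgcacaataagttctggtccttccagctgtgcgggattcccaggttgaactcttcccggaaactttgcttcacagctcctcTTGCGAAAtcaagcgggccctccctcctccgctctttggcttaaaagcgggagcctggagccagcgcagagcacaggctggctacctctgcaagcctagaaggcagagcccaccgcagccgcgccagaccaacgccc
Mt2: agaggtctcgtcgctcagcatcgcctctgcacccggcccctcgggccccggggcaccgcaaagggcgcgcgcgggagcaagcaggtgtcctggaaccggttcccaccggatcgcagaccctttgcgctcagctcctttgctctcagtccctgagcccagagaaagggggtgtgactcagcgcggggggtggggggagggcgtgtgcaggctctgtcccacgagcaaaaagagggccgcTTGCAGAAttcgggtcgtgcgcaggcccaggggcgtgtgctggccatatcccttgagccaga
Each run is written 5′ to 3′ on the strand of its gene. A match describes letters and not binding. The STAT motif TTCNNNGAA was in 1 of the 7 windows, that of Steap4, and in 8.25% of all genes with a window. Among the bile acid genes that fell, 3 of 5 held it, Hsd3b7, Slc10a1 and Slco1b2, and 1 held the C/EBP motif.

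Other genes that rose were mostly of low level. Hspb1, a small heat shock protein, was at 54.2, 40.2, 14, 45.1 and 9.86 CPM in SFO livers, against 1.34, 3.87 and 13.8 CPM at the lowest, median and highest OO liver (log2 fold change 2.58 ± 0.61, adjusted p = 0.0277, up to 0.0877 without SFO 1 or 5). It was the 1 call of 17 heat shock genes (5.88%, beside 0.267% of all genes higher). Irf2bp2, a transcriptional repressor, averaged 97.2 ± 68.2 CPM in SFO livers and 31.1 ± 14 CPM in OO livers (adjusted p = 0.0125; 0.108 without SFO 5, which held the highest value, 213 CPM). Col4a2, a basement membrane collagen, averaged 39.5 ± 24.5 CPM and 11.2 ± 8.03 CPM in the same order (adjusted p = 0.0284, up to 0.14 without SFO 5 or OO 2). Eif4ebp3, a repressor of cap-dependent translation, stood at 19.1 to 50.7 CPM in SFO livers and 3.25 to 15.4 CPM in OO livers. Neurl4 stood at 21 to 79.3 CPM and 4.86 to 17.4 CPM, and Apbb3 at 8.03 to 32.8 CPM and 1.71 to 4.98 CPM, in the same order. None of these 3 overlapped between the diets, and their adjusted p was 0.0313 (up to 0.11 without SFO 1 or 5 or OO 2), 0.0265 (up to 0.119 without SFO 2 or 5) and 0.0214 (up to 0.0592 without SFO 1 or 2). Pea15a and Rin2 also rose (log2 fold change 2.42 and 2.09, adjusted p = 0.0324 and 0.0313) with overlapping ranges. Their adjusted p was up to 0.0764 without SFO 2 or 5 or OO 6 and up to 0.0747 without SFO 3, 5 or 6.

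Counts were 0 in all 6 OO livers for 5 of the genes that rose, A930004D18Rik, Dok3, Tnc, Ttll8 and Vsig10, named here after their values were seen. Against a floor of 3 counts over the OO group they were at least 57.1-fold higher in SFO livers, and up to at least 108-fold for Dok3, an adaptor protein of immune cells. Tnc, an extracellular matrix glycoprotein, was at 11.8, 0, 3.46, 4.01 and 11.4 CPM in SFO livers, which is at least 99.4-fold higher. Its levels and those of the other 4 were at most 20.4 CPM in any SFO liver, and 4 of the 5 were also at 0 in 1 SFO liver, so these calls rest on few counts; floors cover counting error only. None of the 5 was tested in the fit on the 11 libraries. A930004D18Rik (adjusted p = 0.0393) was called in only 2 of the 11 omissions, with an adjusted p of up to 0.0762 without SFO 1, 2, 3 or 5 or OO 1, 2, 3, 4 or 6. The adjusted p was 0.0324 for Tnc, up to 0.07 without SFO 1 or 5 or OO 2 or 3, and 0.0313 for Vsig10, up to 0.0608 without SFO 5 or 6 or OO 2 or 3. Dok3 (adjusted p = 0.0214) was at 0.0749 without SFO 1, and Ttll8 (adjusted p = 0.0277) at 0.0762 without SFO 5.

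The largest falls were likewise at modest levels. Snx25, a sorting nexin, was at 8.82 to 17.6 CPM in SFO livers and 23.6 to 92.7 CPM in OO livers (log2 fold change -2.16 ± 0.44, adjusted p = 0.0114), with no overlap and a call in all 11 omissions. Serpina7, the thyroxine-binding globulin of blood, was at 41.3, 36.9, 40.6, 47.8 and 47.6 CPM in SFO livers, against 52, 129 and 375 CPM at the lowest, median and highest OO liver (log2 fold change -1.87 ± 0.44, adjusted p = 0.0366, up to 0.1 without SFO 1, 2, 3, 5 or 6 or OO 2 or 3). Rpain and Mgmt, the DNA repair enzyme that removes alkyl groups from guanine, had log2 fold changes of -2.63 and -2.07, with OO 3 at 150 and 145 CPM. Without OO 3 these were -1.38 and -1.13, at an adjusted p of 0.281 and 0.299, and the calls were also lost without SFO 1, 3 or 5 for both and without SFO 2 or OO 2 for Mgmt. Tusc3, Tecpr2, Tmem104 and Ogfod1 fell by 2.03 to 2.55 on the log2 scale with overlapping ranges. Their adjusted p was up to 0.118 without SFO 2, 3, 5 or 6 or OO 1, 2 or 6 for Tusc3 and up to 0.215 without SFO 1, 2, 3, 5 or 6 or OO 1, 2 or 3 for Tecpr2. It was up to 0.115 without SFO 1, 2, 5 or 6 or OO 2 or 3 for Tmem104 and up to 0.177 without SFO 1, 2, 3, 5 or 6 or OO 2 or 3 for Ogfod1. Zfp385b fell by 1.66 without overlap (adjusted p = 0.0329, up to 0.0884 without SFO 1, 2, 3 or 5 or OO 1 or 2), and Nxt2 by 1.67 with overlap (adjusted p = 0.0122, 0.0557 without SFO 5). Car3, carbonic anhydrase 3, fell to 2008 ± 495 CPM in SFO livers, against 2981 ± 497 CPM in OO livers (adjusted p = 0.0277, up to 0.0874 without SFO 1, 3 or 5 or OO 3 or 4). It stands on the adipocyte marker list but is also abundant in hepatocytes.

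Several lists held no call. None of 57 ribosomal protein genes passed the test, although 52 had a log2 fold change above 0 and their median was 0.355. No gene was called among 35 of endoplasmic reticulum folding (median 0.15), 43 of the interferon response (median -0.169), 23 of the circadian clock (median 0.0235), 31 of the proteasome (median -0.113) or 27 of complement (median -0.07). Scaled by library totals, the medians of the proteasome and complement lists turned positive. Liver endothelial and stellate markers were not called. Eng averaged 56.5 ± 31.6 CPM in SFO livers and 67.8 ± 24.1 CPM in OO livers. Dcn averaged 144 ± 18.7 CPM and 127 ± 37.8 CPM in the same order. Albumin averaged 99200 ± 16620 CPM in SFO livers and 119600 ± 14540 CPM in OO livers (adjusted p = 0.172). Skeletal muscle markers summed to 10.7 to 212 CPM in SFO livers and 1.95 to 51.8 CPM in OO livers, and none was called.

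Levels in the other diets place these differences. The comparisons of SFO and of OO with chow share the chow livers with each other and the SFO or OO livers with the comparison above, so their values are given side by side only. They called 0.835% and 2.64% of genes for SFO and OO. Gclc averaged 265 CPM in SFO, 575 CPM in OO, 278 CPM in CSO and 538 CPM in chow livers, with a log2 fold change over chow of -1.02 in SFO livers (adjusted p = 3.7e-05) and 0.10 in OO livers (adjusted p = 0.806). Ehhadh averaged 210 CPM in SFO, 380 CPM in OO, 390 CPM in CSO and 393 CPM in chow livers, with log2 fold changes over chow of -0.91 (adjusted p = 0.00109) and -0.05 (adjusted p = 0.925) for SFO and OO. For these genes OO livers were near chow. Hsd3b7 averaged 534 CPM in SFO, 868 CPM in OO, 414 CPM in CSO and 490 CPM in chow livers, with log2 fold changes over chow of 0.12 (adjusted p = 0.942) and 0.82 (adjusted p = 4.93e-05). Abcb11, at 684, 1079, 495 and 716 CPM in the same order of diets, had 0.59 in OO livers over chow (adjusted p = 0.015) and -0.07 in SFO livers (adjusted p = 0.988). For these genes SFO livers were near chow. Pea15a and Rin2, called higher in SFO than in OO livers, had log2 fold changes over chow of -0.21 and 0.15 in SFO livers (adjusted p = 0.988 for both). In OO livers these were -2.63 (adjusted p = 0.00998) and -1.94 (adjusted p = 0.0253). Scd1 averaged 5707 CPM in SFO, 14060 CPM in OO, 7586 CPM in CSO and 8942 CPM in chow livers, and neither oil diet differed from chow by the test (adjusted p = 0.511 for SFO and 0.184 for OO). Saa1 averaged 235 CPM in SFO, 17.2 CPM in OO, 12 CPM in CSO and 4.39 CPM in chow livers (log2 fold change of SFO over chow 5.76, adjusted p = 0.00386).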

How the data were processed

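Liver RNA from mice on 4 diets was sequenced as QuantSeq 3′ libraries. The authors deposited raw counts of reads by gene in 23 libraries. Trimmomatic, the aligner STAR 2.7.1a, the counter HTSeq 0.9.1 and the mm39 genome are named in the submitters' processing notes. No strand setting was found in the labels or the file, so reads of overlapping and antisense genes cannot be told apart. Genes of the Mup, Saa, Cyp2c, Gstm, Acaa1, Akr1c and Ces families resemble each other, which makes the split of counts within a family uncertain. The authors' tables against chow were not used.

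Of 13686 genes, filterByExpr by diet kept 11971, which hold 99.9% of the counts. They were fitted in R 4.3.3 with edgeR 4.0.16: TMM factors, diet as the only term, all 23 libraries, robust quasi-likelihood test, Benjamini-Hochberg over all tested genes, threshold 0.05. Composition factors averaged 1.009 in SFO and 0.923 in OO libraries, and CPM include them. DESeq2 1.42.0 and limma 3.58.1 served as alternatives. Detected genes had at least 1 count after thinning to 5000000 counts. The members and gene lists were chosen with earlier results of these data known, and lists are described by counts and medians with no set test. Named were called genes with a mean of at least 1 log2 CPM and every SFO library on 1 side of the OO mean (the 14 largest changes each way). To these were added up to 4 called members per list, or 2 abundant ones where none was called. Exceptions are said in the text, and some genes that met the rule are not reported here. Promoter windows are from RefSeq on GRCm38.p6, another build than the counts, and were matched by symbol. Floors cover counting error only, while each ± is an SD between livers or an SE of the fit. Python 3.11.15 and matplotlib 3.10.9 drew the figures.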

Additional observations from a re-analysis of the deposited data

Results flagged for a closer look

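Among 176 groups of 5 or 6 libraries, from 84 named genes and 4 measures of the libraries, 8 held 1 library far from the others; about 1 in 20 groups does so by chance. In SFO livers, SFO 2 was high for Rpain (12 CPM, the others 4.17 to 5.6) and Hsd3b7 (674 CPM, the others 480 to 523). SFO 6 was high for Cyb5b (506 CPM, the others 331 to 367) and Fasn (1150 CPM, the others 516 to 645). In OO livers, OO 3 was high for Mgmt (145 CPM, the others 11.4 to 27.9), Ugp2 (885 CPM, the others 408 to 513) and Aldh4a1 (780 CPM, the others 528 to 609), and OO 2 for Hsd17b4 (1120 CPM, the others 444 to 608).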

How the results depend on the processing

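The 127 calls (32 higher and 95 lower in SFO livers) moved with the samples and the tool. Only the SFO and OO libraries gave 2 calls (1 higher and 1 lower), and 10 (1 and 9) with the genes and factors of all libraries. Leaving out 4 chow and CSO libraries with muscle transcripts gave 37 (8 and 29), library totals without a composition factor 56 (33 and 23), and DESeq2's size factors in edgeR 88 (27 and 61). DESeq2's Wald test gave 461 (211 and 250), and limma voom with quality weights 9 (0 and 9, with 995 of 11971 genes at an unadjusted p under 0.05). Keeping genes that changed by 1 or more on the log2 scale left 69 (29 and 40). Chosen after seeing the data, DESeq2 and voom on the 11 libraries gave 90 (44 and 46) and 15 (0 and 15). Leaving out each library gave 31 (without SFO 5) to 240 (without OO 5) calls, 6 to 66 higher and 25 to 174 lower, and 18 of the 127 genes were called every time. Testing all genes, testing those with 10 counts in 5 or more libraries, and adding a clock score as covariate gave 129, 119 and 145. None of the 84 named genes, called or not, changed sign in any of these settings. The difference in detected genes kept its direction and its side of 0.05, at 583 to 832.6 genes with 1 library left out, 702.8 thinned to the shallowest library and 745.8 at 5 counts. The cause of these shifts was not tested.

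With the replicate number as a block, 77 genes were called (22 higher and 55 lower). Same-numbered libraries did not deviate together (correlations of -0.0508 to 0.0782 over 5679 genes), and only SFO 2 correlated best with the OO library of its own number. So few correlations cannot settle whether the numbers pair the samples, and the labels name no pairing.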
